A study of Mus musculus with 47 samples.

Results

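The 10 genes described here are anti-apoptotic genes that lie downstream of NF-κB: Bcl2a1a, Bcl2a1b, Bcl2a1d, Mcl1, Bcl2l1 and Bcl2 of the BCL2 family, Birc2, Birc3 and Xiap of the inhibitor of apoptosis family, and Cflar. They were chosen by gene symbol, and all 10 were found in the tables of all 12 RNA-seq libraries, among 51912 genes in bone marrow-derived macrophages (BMDMs) and 12771 to 23772 genes in the 4 tables of Raw264.7 cells, a mouse macrophage line. The series holds 47 samples, of which those for chromatin (ChIP-seq, ATAC-seq) are not part of what follows. BMDMs were grown with M-CSF from the marrow of C57BL/6 mice whose age the labels do not give. WT mice carried the floxed Zmynd8 allele without Cre, and in Zmynd8 cKO mice 1 copy of Cre expressed from the Lyz2 locus deletes the floxed exons in myeloid cells. The cells received no treatment (NT), LPS (100 ng/ml), which is an outer membrane component of Gram-negative bacteria that activates Toll-like receptor 4, or the cytokine IL-4 (20 ng/ml), the last 2 for 6 h. The labels call the IL-4 libraries M2, and the agent was taken from the study's methods. For each genotype and treatment 3 biological replicates were mixed into 1 library. The 6 Raw264.7 libraries came from cells in which Zmynd8 or p65, the NF-κB subunit encoded by Rela, had been knocked out with a lentiviral guide RNA: Zmynd8 KO, Zmynd8 KO with WT Zmynd8 put back, Zmynd8 KO with the D/E-A mutant (acidic residues of ZMYND8 changed to alanine), and, all with LPS, p65 KO, p65 KO with WT p65 put back, and p65 KO with p65 K122R. The labels of the 3 Zmynd8 lines give no treatment, though the study's text names LPS for WT Zmynd8 and D/E-A. The heading of the column used for WT p65 reads WT alone, without p65 KO, and whether a line was 1 clone was not given in the sources used here.

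Proteins of the BCL2 family decide whether the outer mitochondrial membrane is opened in apoptosis. A1 (the product of the Bcl2a1 genes), MCL-1, BCL-XL (the product of Bcl2l1) and BCL-2 bind and hold back the pro-apoptotic members of the family. XIAP binds caspases directly, while cIAP1 and cIAP2 (the products of Birc2 and Birc3) are ubiquitin ligases of the TNF receptor complex. c-FLIP, the product of Cflar, restrains caspase-8 at death receptors. In macrophages, NF-κB induced through Toll-like receptors is known to raise the transcription of several of these genes, so that survival proteins are made alongside the inflammatory program.

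The BMDM libraries held 22597425 to 28386646 counts and the Raw264.7 libraries 15127110 to 21042628 reads. In BMDMs all 8 macrophage markers were detected in every library, and their summed level was lower in the library labelled cKO in each pair (14059 against 20485 TPM in NT, 8756 against 13563 with LPS, 12620 against 17574 with IL-4). Lyz2, the locus that carries Cre in the cKO, made up most of the WT sums and was lower in each cKO library (7960 against 14503 TPM, 3861 against 8691 and 6930 against 12049). Without it the other 7 markers summed to nearly the same level in each pair (6099 against 5983, 4895 against 4872 and 5690 against 5525 TPM), with 2, 3 and 4 of the 7 higher in the cKO library. The 8 neutrophil markers summed to 11.6 to 21.7 TPM in the NT and LPS libraries and to 1288 (WT) and 1828 TPM (cKO) in the IL-4 libraries, where Mpo, Elane, Ltf and Ngp held 142 to 3302 counts, against 0 to 8 elsewhere. At least 3 of the 4 T cell markers were below 10 counts in every BMDM library, as were all 4 mast cell markers. The 6 dendritic cell markers summed to 1.02 (WT) and 0.36 TPM (cKO) in NT, 9.89 and 14.1 with LPS, and 2.45 and 3.82 with IL-4. The 5 B cell markers summed to 1.96 and 5.01 TPM in NT, 0.96 and 1.3 with LPS, and 15.5 and 24.2 with IL-4. The Zmynd8 gene, the target of the cKO, had 2284 counts (WT) and 1842 counts (cKO) in NT. The counts were 1967 and 2033 with LPS, and 3636 and 3944 with IL-4, so they were not lower in the library labelled cKO under either treatment. Reads over the floxed exons cannot be told apart from the rest in these tables, so the libraries are named below as labelled.

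The 3 Bcl2a1 genes lie close together on chromosome 9 and are recent copies of each other. Their upstream sequence is shown because it is nearly the same in all of them although their levels differ. A block 142 bases long was identical upstream of Bcl2a1a and Bcl2a1b, at 100% of positions. The block of Bcl2a1d was 95.1% identical to both, with 1 substituted base and 6 bases fewer. The sequences are from RefSeq on GRCm38.p6 (mm10), at chr9:88956714-88956855 on the plus strand for Bcl2a1a, chr9:89199023-89199164 on the plus strand for Bcl2a1b and chr9:88731915-88732050 on the minus strand for Bcl2a1d. Capitals mark the substituted base and the 6 bases that Bcl2a1d lacks.
Bcl2a1a: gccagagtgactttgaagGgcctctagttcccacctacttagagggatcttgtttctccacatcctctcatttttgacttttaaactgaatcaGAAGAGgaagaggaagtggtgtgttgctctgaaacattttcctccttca
Bcl2a1b: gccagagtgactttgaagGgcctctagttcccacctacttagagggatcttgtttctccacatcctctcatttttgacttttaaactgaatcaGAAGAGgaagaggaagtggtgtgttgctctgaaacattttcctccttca
Bcl2a1d: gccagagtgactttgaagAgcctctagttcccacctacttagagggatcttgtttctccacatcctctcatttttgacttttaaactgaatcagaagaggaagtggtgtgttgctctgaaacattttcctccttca

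The κB consensus, the site that NF-κB dimers bind, was searched on both strands around each annotated start (250 bases before and 50 after). It was present at 2 of the 10 genes, Bcl2l1 and Xiap, against 9.55% of the 27025 genes with a start in the RefSeq table. Both matches are shown with their flanks because they are the only ones among these genes, with the matched bases in capitals. The Bcl2l1 match lay before 1 of its 3 starts (chr2:152830940-152830967, minus strand), and the Xiap match lay after 1 of its 3 starts (chrX:42068410-42068439, plus strand).
Bcl2l1: tgtttgtgGGGGGTCTCCagcatacgcc
Xiap: cccctcctccGGGACCCTCCcctcgggaac
The genes that rose most after LPS, described next, had no match in this window, and enhancers farther away were not searched.

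Mcl1 had the highest level in untreated BMDMs and Bcl2a1a the lowest. Levels between genes are given as TPM, which is scaled by gene length. In NT, the order of the mean over WT and cKO was Mcl1 (196 TPM), Bcl2l1 (119), Bcl2a1b (109), Cflar (29.1), Xiap (20.3), Birc3 (18.7), Bcl2a1d (14.5), Birc2 (6.69), Bcl2 (3.18) and Bcl2a1a (1.61). In that order Bcl2l1 and Bcl2a1b overlapped between the WT and cKO libraries, and so did each neighbouring pair from Cflar to Bcl2a1d. After LPS, Mcl1 (350 TPM) was followed by Bcl2a1b (257), Bcl2a1d (196), Cflar (159) and Birc3 (108), with Bcl2l1 at 74.0, Bcl2a1a at 61.6, Xiap at 17.4, Birc2 at 11.6 and Bcl2 at 0.685 TPM, and no neighbours overlapped. After IL-4, Bcl2a1b came first at 898 TPM, ahead of Mcl1 (275) and Bcl2a1d (238), which overlapped. Birc3 (125), Cflar (87.4) and Bcl2a1a (84.1) followed, the last 2 overlapping, and Bcl2l1 (47.2), Xiap (25.6), Birc2 (18.3) and Bcl2 (5.91) were lowest.

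**Figure D1:**
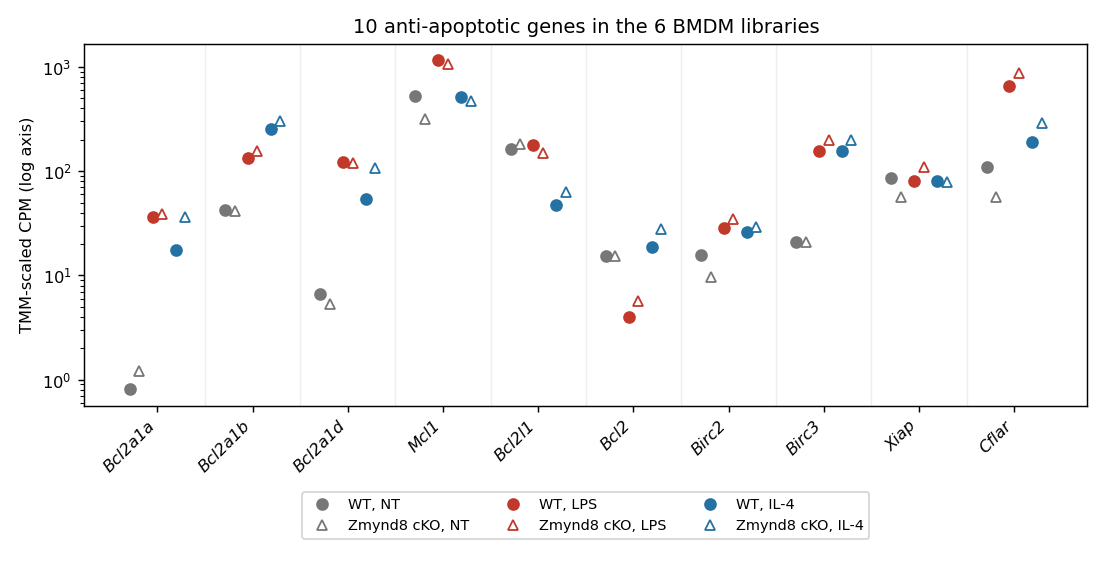
Level of each of the 10 genes in the 6 BMDM libraries, in CPM after TMM scaling on a log axis, with WT and Zmynd8 cKO as separate points in NT, LPS and IL-4. The 3 Bcl2a1 genes, Birc3 and Cflar lie higher in both LPS libraries and both IL-4 libraries than in NT, Bcl2 lies lower after LPS, and Bcl2l1 lies lower after IL-4.

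LPS raised 7 of the 10 genes and lowered 1. The 3 Bcl2a1 genes, Birc3 and Cflar rose by 3.45-fold or more, Mcl1 and Birc2 rose by less, Bcl2 fell, and Bcl2l1 and Xiap were not called. Treatments were compared with edgeR's quasi-likelihood test over the 6 libraries with genotype as a covariate, so that WT and cKO served as the 2 libraries of each treatment (n = 2), and a gene was called at an adjusted p under 0.05 and a fold change of at least 1.2. Of the 13075 genes tested, 50.8% were called, 25.1% as higher and 25.7% as lower. The median log2 fold change was 1.60 over the 10 genes and -0.03 over all genes tested.

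Among the BCL2 family, Bcl2a1a was at 0.81 CPM (WT) and 1.202 CPM (cKO) in NT and at 36.5 and 38.8 CPM after LPS, after TMM scaling. It rose by 5.26 ± 0.33 (SE) on the log2 scale (38.4-fold, adjusted p = 0.000166), and the lower LPS library stood far above the higher NT library. Bcl2a1d rose from 6.60 and 5.37 CPM to 121.6 and 120.3 CPM (4.32 ± 0.35, adjusted p = 0.000282). Bcl2a1b started higher, at 42.0 and 41.7 CPM, and reached 133 and 158 CPM (1.79 ± 0.20, adjusted p = 0.00068). Mcl1, whose product is short-lived and is made continuously in most cells, had 529 and 318 CPM in NT and 1154 and 1058 CPM after LPS (1.42 ± 0.25, adjusted p = 0.00441). Here the WT and cKO libraries differed more from each other in NT than after LPS, but no LPS library overlapped an NT library. Bcl2, a survival factor of lymphocytes in particular, moved the other way, from 15.4 and 15.2 CPM to 3.96 and 5.68 CPM (-1.70 ± 0.24, adjusted p = 0.00166). Bcl2l1 was at 162 and 183 CPM in NT and at 179 and 148 CPM after LPS, and these ranges overlapped (-0.07 ± 0.22, adjusted p = 0.823).

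Among the inhibitors of apoptosis, Birc3 was at 21.0 CPM in both NT libraries and at 155 and 199 CPM after LPS (3.06 ± 0.21, adjusted p = 0.000188). Birc2, which neighbours Birc3 on chromosome 9, had 15.6 and 9.73 CPM in NT and 28.7 and 35.1 CPM after LPS (1.34 ± 0.27, adjusted p = 0.00699). The cKO libraries were the lower of the pair for Birc2 in NT and the higher after LPS. Xiap had 86.2 and 56.0 CPM in NT and 80.3 and 109 CPM after LPS, and these ranges overlapped (0.42 ± 0.27, adjusted p = 0.233). Without the WT NT library Xiap was at 0.85 and was called higher (adjusted p = 0.0106). Cflar rose from 109 and 56.1 CPM to 650 and 871 CPM (3.20 ± 0.42, adjusted p = 0.00137), the widest error of the 10 genes in this comparison.

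The size of these changes rests on the scaling. With library totals in place of TMM, the median of all genes tested moved from -0.03 to -0.68 and the share of calls that were higher moved from 49.5% to 23.5%. Of the 10 genes, 6 were then called higher and 2 lower, since Bcl2l1 was called lower (-0.72), Birc2 at 0.69 was no longer called (adjusted p = 0.0726), and Xiap turned to -0.23.

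IL-4 raised 6 of the 10 genes and lowered 1, against 20.8% of all genes tested that were called (10.6% higher and 10.2% lower). The 3 Bcl2a1 genes and Birc3 rose by 6.62-fold or more, Cflar and Birc2 rose by less, Bcl2l1 fell, and Mcl1, Bcl2 and Xiap were not called. The median log2 fold change was 1.34 over the 10 genes and 0.00 over all genes tested. Both treatments were compared with the same NT libraries.

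Bcl2a1b reached 254 CPM (WT) and 304 CPM (cKO) after IL-4, up from 42.0 and 41.7 CPM (2.73 ± 0.20, adjusted p = 0.000529). Bcl2a1a reached 17.5 and 36.6 CPM (4.69 ± 0.32, adjusted p = 0.000443) and Bcl2a1d 54.0 and 106 CPM (3.69 ± 0.35, adjusted p = 0.0011). For both of these copies the cKO library stood well above the WT library, while the NT libraries lay far below both. The neutrophil markers stood at 1288 and 1828 TPM in the same 2 libraries and at 21.7 TPM or less in NT and LPS. Ly6g, which marks mature neutrophils, held 2 to 3 counts there. A1 is known to be made in neutrophils as well as in macrophages, and the part of these markers in the IL-4 values was not tested. The sample numbers in the labels of the IL-4 libraries lie apart from those of the NT and LPS libraries, and what these numbers stand for was not given in the sources used here.

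Birc3 had 156 and 200 CPM after IL-4 (3.07 ± 0.21, adjusted p = 0.000443), close to its LPS values under TMM, whereas with library totals its changes were 3.24 after IL-4 and 2.41 after LPS. Birc2 had 26.2 and 29.4 CPM (1.14 ± 0.27, adjusted p = 0.0278) and Cflar 191 and 290 CPM (1.54 ± 0.40, adjusted p = 0.0398). Neither call held when the cKO IL-4 library was left out (adjusted p = 0.119 for Birc2 and 0.0991 for Cflar), although both directions did. Bcl2l1 was at 47.2 and 62.6 CPM after IL-4, below 162 and 183 CPM in NT (-1.65 ± 0.23, adjusted p = 0.00433). Bcl2 had 18.5 and 27.7 CPM, above both NT libraries but not called (0.56 ± 0.22, adjusted p = 0.121), and without the WT NT library it was at 0.85 and was called higher (adjusted p = 0.0197). Mcl1 at 514 and 476 CPM (0.26 ± 0.25, adjusted p = 0.492) and Xiap at 79.7 and 79.5 CPM (0.17 ± 0.27, adjusted p = 0.684) overlapped their NT ranges.

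**Figure D2:**
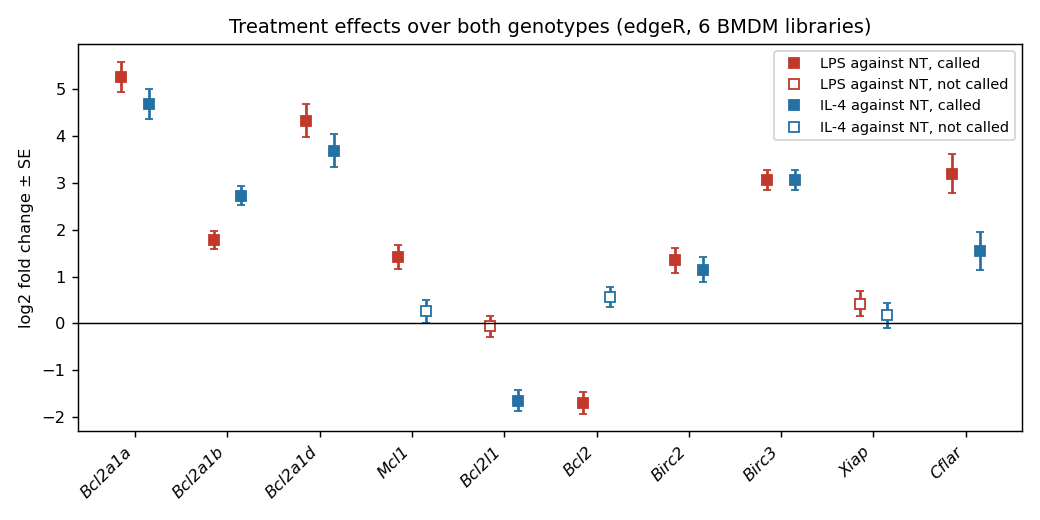
Log2 fold change of each of the 10 genes after LPS and after IL-4 against NT in BMDMs from edgeR, with bars of 1 SE, over 6 libraries. Bcl2a1a stands highest in both treatments (5.26 and 4.69), Bcl2 lies below 0 only after LPS and Bcl2l1 lies clearly below 0 only after IL-4.

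Other genes of cell survival and cell death were followed as lists. After LPS, 10 of 13 tested pro-survival genes outside the 10 were called higher and 0 lower, led by Traf1, a TNF receptor adaptor (4.96 ± 0.33, adjusted p = 0.000181), Naip1 (3.64 ± 0.47), the kinase gene Pim1 (3.44 ± 0.26) and Ier3 (3.28 ± 0.27). Of 8 tested pro-apoptotic BCL2 family genes, 3 were called higher (Pmaip1, Bid and Bak1, at 1.62, 1.25 and 1.21) and 2 lower, among them Bmf (-1.09). Of 18 death receptor, caspase and necroptosis genes, 12 were called higher and 0 lower under TMM, with Fas, a death receptor, at 5.15 ± 0.27. The pro-apoptotic calls thus lay in both directions, against 25.1% higher and 25.7% lower over all genes tested, and the list medians were 2.53, 0.23 and 1.11 against -0.03 over all genes tested. All 10 NF-κB subunit and feedback genes were called higher under TMM, among them the inhibitor genes Nfkbie (3.49 ± 0.21) and Nfkbia (3.17 ± 0.25). The list counts here and after IL-4 are those under TMM, and the lists were not counted again with library totals. Library totals moved the share of all calls that were higher after LPS from 49.5% to 23.5%. By library totals Rela had 83.1 (WT) and 97.1 CPM (cKO) in NT, and 95.9 and 103.6 CPM after LPS.

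After IL-4, 4 of the 13 pro-survival genes were called higher and 1 lower, with Ier3 at 3.09 ± 0.27, Traf1 at 2.52 ± 0.30 and Serpinb9, a granzyme inhibitor gene, at -1.20 ± 0.23. The pro-apoptotic genes split again, with 3 higher, among them Bmf (2.20 ± 0.28) and Bcl2l11, which encodes BIM (1.16 ± 0.23), and 2 lower (Pmaip1 at -1.26 and Bid at -1.23). Bmf, Pmaip1 and Bid were thus called in opposite directions after LPS and after IL-4, each against the same NT libraries, but 4 of these 6 calls were lost under some alternatives: for Bid after LPS with library totals, for Bmf after LPS without the cKO NT or WT LPS library or without both IL-4 libraries, and for Pmaip1 and Bid after IL-4 without the WT IL-4 library. Of the 18 death receptor and caspase genes 3 were called higher and 4 lower, and of the 10 NF-κB genes 7 were called higher and 0 lower, led by Nfkb1 (2.62 ± 0.23) and Rel (2.57 ± 0.30). All 4 genes chosen to check LPS were called higher after LPS, and all 4 chosen to check IL-4 were called higher after IL-4. Nos2 rose from 7.75 and 3.85 CPM in NT to 10675 and 10247 CPM after LPS, and Arg1 from 0.68 and 0.56 CPM to 1197 and 1220 CPM after IL-4. These genes were not particular to 1 treatment. Arg1 also rose after LPS (5.69 ± 0.30, adjusted p = 0.000151), and 2 of the 4 LPS genes were also called higher after IL-4, Acod1 (3.69 ± 0.75, adjusted p = 0.0174) and Il12b, which had 0 and 1 counts in NT and 5 and 46 after IL-4.

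The question whether Zmynd8 loss changes these genes was addressed first over the 3 treatments together, with treatment as a covariate in edgeR (n = 3 against 3). None of the 10 genes was called, as 0 of 13075 genes were called (0%), while 403 genes (3.08%) had an unadjusted p under 0.05 and DESeq2 called 40 (0.306%). Bcl2a1a had the largest estimate of the 10, 0.58 ± 0.23 (unadjusted p = 0.0436 from edgeR, adjusted p = 0.999), followed by Bcl2 at 0.35 ± 0.18 and Mcl1 at -0.32 ± 0.20. Bcl2a1a was higher in the cKO library in 3 of 3 treatments and Mcl1 was lower in 3 of 3. However, Bcl2a1a had only 24 (WT) and 30 counts (cKO) in NT, and 636 and 655 with LPS. How many of all genes lay on the same side in 3 of 3 treatments was not counted.

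Within each treatment, 1 cKO library was set against 1 WT library with an exact binomial test on their reads, which compares those libraries and not the genotypes. Fold changes are on the log2(CPM + 1) scale with CPM from library totals, and the 95% limits in brackets cover counting error only. The limits are those of the ratio without the added 1, so for a gene of few reads they are not centred on the printed fold change. With library totals, the 4 genes called in NT were lower in the cKO library. The 6 called after LPS and the 7 called after IL-4 were all higher in it. Under TMM or median ratio scaling, Bcl2a1b and Bcl2 were not called after LPS, and Bcl2l1 was called lower (-0.26 and -0.28). Under these scalings Bcl2a1b was not called after IL-4 either. The share of all tested genes called was 48% in NT (26.1% lower), 26.2% after LPS (17.3% higher and 8.9% lower) and 24.5% after IL-4 (14% higher). In NT these genes were thus called no more often than all genes tested, though all their calls were lower.

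In NT, Cflar had 122.4 CPM in the WT library and 61.95 CPM in the cKO library (-0.97 [-1.07 to -0.89]). Mcl1 had 597 and 352 CPM (-0.76 [-0.80 to -0.72]), Birc2 17.6 and 10.8 CPM (-0.66 [-0.94 to -0.48]) and Xiap 97.2 and 61.9 CPM (-0.64 [-0.75 to -0.56]). The other 6 were not called, and Bcl2a1b (47.4 and 46.1 CPM), Bcl2 (17.4 and 16.8 CPM) and Birc3 (23.7 and 23.2 CPM) lay within 1.04-fold of each other. The macrophage markers other than Lyz2 summed to 6099 TPM in this cKO library and 5983 TPM in the WT library, but 5 of these 7 were lower in the cKO library, among them Itgam (11796 against 22536 counts), Fcgr1 (10129 against 20642) and Mertk (913 against 2590). The part of these markers was not tested. In such bulk libraries, fewer cells of a type and less RNA per cell cannot be told apart.

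After LPS, Cflar had 455 CPM in WT and 628 CPM in cKO (0.46 [0.43 to 0.50]), the reverse of its order in NT. Xiap (56.2 and 78.6 CPM, 0.48 [0.38 to 0.59]) and Birc2 (20.1 and 25.4 CPM, 0.32 [0.16 to 0.51]) also changed sides. Birc3 had 109 and 144 CPM (0.40 [0.33 to 0.48]), Bcl2a1b 93.04 and 113.7 CPM (0.29 [0.21 to 0.37]) and Bcl2 only 69 and 96 counts (0.43 [0.10 to 1.03]). The calls of Bcl2a1b and Bcl2 were lost under TMM or median ratio scaling, under which Bcl2l1 (-0.23 as counted, -0.26 under TMM) was called lower. Scaling also moved the share of all calls that were higher, from 66.1% to 52.8% with the median ratio. Mcl1 (808 and 763 CPM), Bcl2a1a (25.5 and 28.0 CPM) and Bcl2a1d (85.1 and 86.8 CPM) were not called.

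After IL-4, Bcl2a1a had 21.9 CPM in WT and 46.2 CPM in cKO (1.04 [0.94 to 1.22]), and Bcl2a1d had 67.7 and 134 CPM (0.98 [0.91 to 1.07]). Bcl2a1b differed by less, with 318 and 384 CPM (0.27 [0.23 to 0.31]), and its call was lost under TMM or median ratio scaling. Cflar had 239 and 367 CPM (0.61 [0.57 to 0.66]), Bcl2 23.3 and 34.9 CPM (0.57 [0.44 to 0.73]), Bcl2l1 59.2 and 79.0 CPM (0.41 [0.32 to 0.51]) and Birc3 195 and 252 CPM (0.37 [0.32 to 0.42]). All 7 were higher in the cKO library, and Mcl1 (644 and 601 CPM), Birc2 (32.9 and 37.1 CPM) and Xiap (99.9 and 100.4 CPM) were not called. The summed neutrophil markers were also higher in this library (1828 against 1288 TPM). So were the LPS-response genes Acod1 (30470 against 7385 counts), Tnf (3361 against 1099) and Nos2 (187 against 35), while of the IL-4-response genes Retnla (5 against 85 counts) and Mrc1 (23617 against 32115) were lower, Chil3 (10433 against 8404) was higher and Arg1 (40252 against 42592) was not called. The part of any of these in the differences was not tested.

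**Figure D3:**
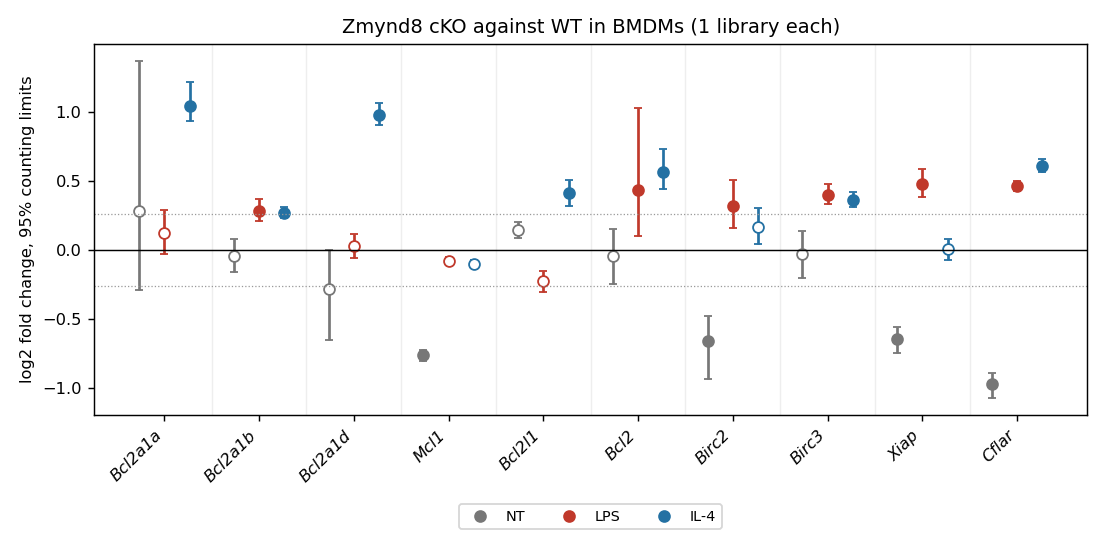
Log2 fold change (CPM + 1) of the library labelled cKO against the WT library for the 10 genes in NT, LPS and IL-4, with 95% counting limits, 1 library per point and side (filled points were called, and dotted lines mark the 1.2-fold threshold). Cflar, Xiap and Birc2 lie below 0 in NT and above 0 after LPS, and Bcl2a1a and Bcl2a1d stand highest after IL-4.

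The NF-κB subunit and feedback genes gave 2 higher and 2 lower calls in NT, and 6 higher and 0 lower after each of LPS and IL-4, of 10 tested. Rel, which encodes the subunit c-Rel, was lower in the cKO library in NT (936 and 463 counts, -0.77) and higher after LPS (1088 and 1404 counts, 0.45). Of the 8 tested pro-apoptotic BCL2 family genes, 2 were higher and 2 lower in NT, 0 and 1 with LPS, and 1 and 2 with IL-4, where Bmf (-0.86) and Bcl2l11 (-0.71) were lower in the cKO library. The other pro-survival genes split 3 higher and 5 lower in NT, 4 and 1 with LPS, and 5 and 0 with IL-4, and the death receptor and caspase genes split 4 and 6, 0 and 4, and 4 and 2. Over all genes tested, 48% were called in NT, 26.2% with LPS and 24.5% with IL-4, so the 4 of 8 pro-apoptotic genes called in NT stand near the share of all genes.

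The Raw264.7 lines, each with 1 library, were compared by fold alone, and an exact binomial test on reads was used only as an alternative. Their values are reads divided by a size factor set separately in each table, and 95% limits, of the ratio without the added 1, again cover counting error only. The libraries of the 3 Zmynd8 lines stood apart from their label. They held all 8 neutrophil markers, summing to 10353 (WT Zmynd8), 4422 (D/E-A) and 6966 (Zmynd8 KO) RPM (reads scaled by the library total), and all 5 B cell markers, summing to 140 to 193 RPM, whereas in the 3 p65 lines 0 of 8 neutrophil markers reached 10 reads and the sum was 0.18 to 0.32 RPM. Cd3e, a defining T cell marker, had 38 reads in WT Zmynd8 and 37 in D/E-A, but only 2 in Zmynd8 KO. Mertk, a receptor of tissue and bone marrow macrophages, had 943 to 1794 reads in the Zmynd8 lines and 2 to 4 in the p65 lines, and 2 genes took 8.40% to 17.1% of all reads in the Zmynd8 lines against 1.66% to 1.83%. The groups of lines are therefore not compared with each other, and the Zmynd8 lines are named as labelled.

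**Figure D4:**
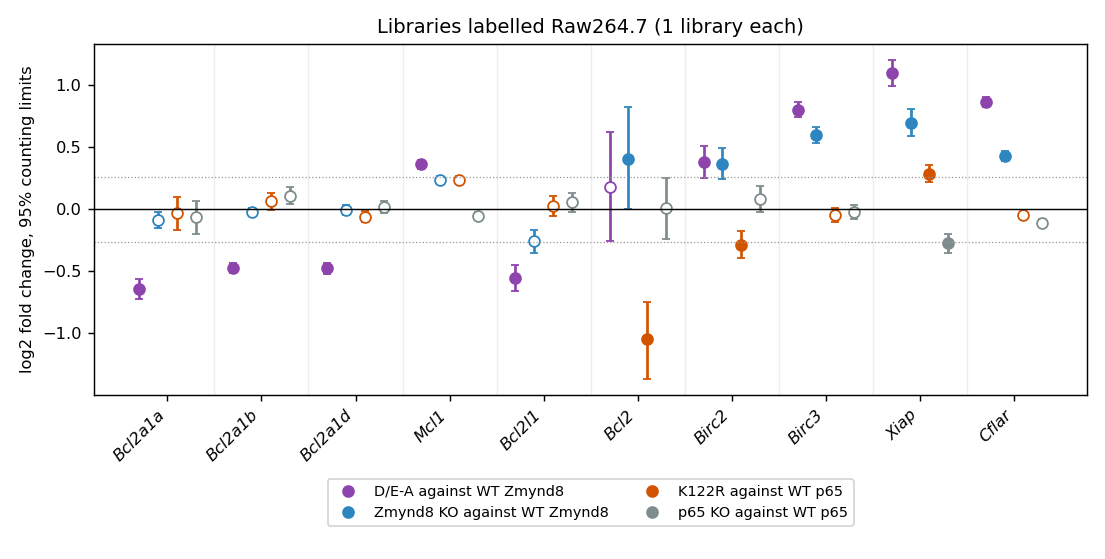
Log2 fold change (value + 1) of each of the 10 genes in 4 comparisons of Raw264.7 libraries, with 95% counting limits and 1 library on each side (filled points are past the 1.2-fold threshold, which dotted lines mark). Among the Zmynd8 lines the 3 Bcl2a1 genes lie between -0.64 and -0.48 with D/E-A and between -0.09 and -0.01 with Zmynd8 KO, and nearly all points of the p65 lines lie close to 0 apart from Bcl2 with K122R.

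With D/E-A against WT Zmynd8, 5 genes were at least 1.2-fold higher and 4 at least 1.2-fold lower, among 72.6% of all genes past that fold (36.7% higher and 35.9% lower). With Zmynd8 KO against the same WT Zmynd8 library, 5 were higher and 0 lower, among 70.3% past that fold (33.8% higher and 36.5% lower). Both comparisons share that library, so their values stand side by side only. Except for D/E-A, the shares over all genes reach down to genes whose mean value is 1. With D/E-A, 9271 genes were past the fold at a minimum mean value of 1 and of 5. With Zmynd8 KO they numbered 14978 and 10818, so the shares cover unlike sets of genes. Fewer genes passed both the fold and an exact binomial test on reads (7900 of 9271 with D/E-A, 7035 of 14978 with Zmynd8 KO, 5353 of 12453 with K122R and 2706 of 10325 with p65 KO). With library totals in place of the size factors, the genes past the fold numbered 9231, 14735, 12994 and 10330, and Bcl2l1 with Zmynd8 KO, just short of the fold with the size factors, passed it as lower (-0.33). Zmynd8 itself was at 509 in D/E-A and 474 in WT Zmynd8. For Zmynd8 KO it is listed at 116 against 506, the 1 value of that library that is not a whole number of reads.

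Xiap had values of 1104 (WT Zmynd8) and 2367 (D/E-A), or 1.10 [1.00 to 1.204] on the log2 scale, and of 1178 and 1914 (0.70 [0.59 to 0.81]) for Zmynd8 KO. Cflar had 7921 and 14414 (0.86 [0.82 to 0.90]), against 8454 and 11392 (0.43 [0.39 to 0.47]) for Zmynd8 KO. Birc3 had 3102 and 5417 (0.80 [0.74 to 0.87]), against 3311 and 5017 (0.60 [0.54 to 0.66]). These 3 genes were higher in both lines than in WT Zmynd8. The summed macrophage markers stood in the same order, at 4978 (WT Zmynd8), 6388 (Zmynd8 KO) and 9447 RPM (D/E-A), and their part was not tested. Birc2 was at 834 and 1086 with D/E-A (0.38 [0.25 to 0.51]) and at 891 and 1149 with Zmynd8 KO (0.37 [0.24 to 0.50]). Mcl1 was past the fold with D/E-A (12770 and 16397, 0.36 [0.33 to 0.39]) and not with Zmynd8 KO (13630 and 16068, 0.24 [0.20 to 0.27]).

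The Bcl2a1 genes were lower with D/E-A. Bcl2a1a had 3534 and 2261 (-0.64 [-0.72 to -0.57]), Bcl2a1b 13080 and 9401 (-0.48 [-0.51 to -0.44]) and Bcl2a1d 9924 and 7132 (-0.48 [-0.52 to -0.43]). With Zmynd8 KO the same genes were at -0.09, -0.02 and -0.01, and none was past the fold. The neutrophil markers stood lower in D/E-A too (4422 against 10353 RPM), as they did in Zmynd8 KO (6966), and their part was not tested. Bcl2l1 was at 1896 and 1289 with D/E-A (-0.56 [-0.66 to -0.45]) and at 2024 and 1693 with Zmynd8 KO (-0.26 [-0.35 to -0.16]). Bcl2 was low in these lines, with 85 reads in WT Zmynd8, 92 in D/E-A and 123 in Zmynd8 KO. Its limits were wide (-0.26 to 0.62 with D/E-A and 0.00 to 0.83 with Zmynd8 KO).

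After LPS in the p65 lines, most of the 10 genes stood close to their value in the WT p65 library. Rela, the gene of p65, was at 778 in p65 KO and 1574 in WT p65, and at 5963 in K122R and 1571 in WT p65. Of the 10 genes, p65 KO had 1 past the fold, Xiap at 2523 against 3053 (-0.28 [-0.35 to -0.20]), among 51.9% of all genes (26.3% higher and 25.7% lower). The others lay between -0.11 (Cflar, 17719 against 19161) and 0.11 (Bcl2a1b, 3598 against 3334). Of the 10 NF-κB genes, 1 was higher and 4 were lower in the same comparison, Rela included, with the feedback gene Tnfaip3 (2881 against 4783, -0.73) and Rel (2020 against 2733, -0.44) lower and Nfkbie (2127 against 1622, 0.39) higher.

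With K122R, 3 of the 10 were past the fold, among 63.3% of all genes (30.8% higher and 32.5% lower). Bcl2 had 127 reads against 274 in WT p65 (-1.05 [-1.37 to -0.75]), the largest difference of the 10 in the p65 lines. In p65 KO, against the same WT p65 library, Bcl2 had 266 reads (0.01 [-0.24 to 0.26]). Birc2 had 1218 against 1485 (-0.29 [-0.40 to -0.18]) and Xiap 3717 against 3047 (0.29 [0.22 to 0.36]). The other 7 lay between -0.06 (Bcl2a1d) and 0.24 (Mcl1, 21433 against 18173). With library totals in place of the size factors the Xiap difference fell short of the fold (0.14), while the share of all calls that were higher moved from 48.6% to 33.7%. The NF-κB genes gave 7 higher and 0 lower of 10 in this comparison, Rela included, and the pro-apoptotic BCL2 family 5 and 3 of 10, with Bbc3, the gene of PUMA, at 322 against 139 (1.204). Bok, counted as higher (6 reads against 0), and Bik (4 against 6) and Bmf (10 against 13), counted as lower, had too few reads to show a difference.

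The split of reads among the 3 Bcl2a1 copies changed with treatment. Of their summed reads, Bcl2a1b took 85.0% in the WT NT library (exact 95% limits 83.1% to 86.8%) and 86.4% in the cKO NT library. After LPS its share was 45.7% (44.3% to 47.1%) in WT and 49.8% (48.4% to 51.1%) in cKO, and after IL-4 it was 78.0% and 68.0%. Bcl2a1d took 13.3% and 11.1% in NT, 41.8% and 38.0% with LPS, and 16.6% and 23.8% with IL-4, while Bcl2a1a stayed at 12.5% or below. The LPS libraries of both genotypes lay apart from the NT and IL-4 libraries in all 3 shares. In the libraries labelled Raw264.7, whose groups of lines are not compared, Bcl2a1b took 49.29% to 50.02% in the Zmynd8 lines. In the p65 lines it took 27.9% to 29.7%, with Bcl2a1d at 62.5% to 64.2%. These shares are uncertain, because 67.7% (Bcl2a1a), 57.6% (Bcl2a1b) and 79.5% (Bcl2a1d) of all 50-base stretches of their transcripts also occur in at least 1 other copy, and how the authors' counting assigned such reads was not given in the sources used here.

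The sum of the 3 copies is free of how shared reads were split among them, though not of whether such reads were dropped or counted more than once. It was 55.8 (WT) and 53.4 CPM (cKO) in NT, with CPM from library totals. It was 204 and 228 CPM with LPS, and 408 and 564 CPM with IL-4. The summed reads of the cKO library against WT differed by -0.06 in NT (exact binomial p = 0.26), by 0.16 with LPS and by 0.47 with IL-4 on the log2 scale, so that the 1.04 of Bcl2a1a after IL-4 stands beside a smaller difference for the family. In the libraries labelled Raw264.7 the sum was 1476 (WT Zmynd8), 1024 (D/E-A) and 1380 (Zmynd8 KO) RPM, and 775 (WT p65), 691 (K122R) and 796 (p65 KO). With the size factors of the tables, D/E-A differed from WT Zmynd8 by -0.50, and the other 3 comparisons lay between -0.02 and 0.04.

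**Figure D5:**
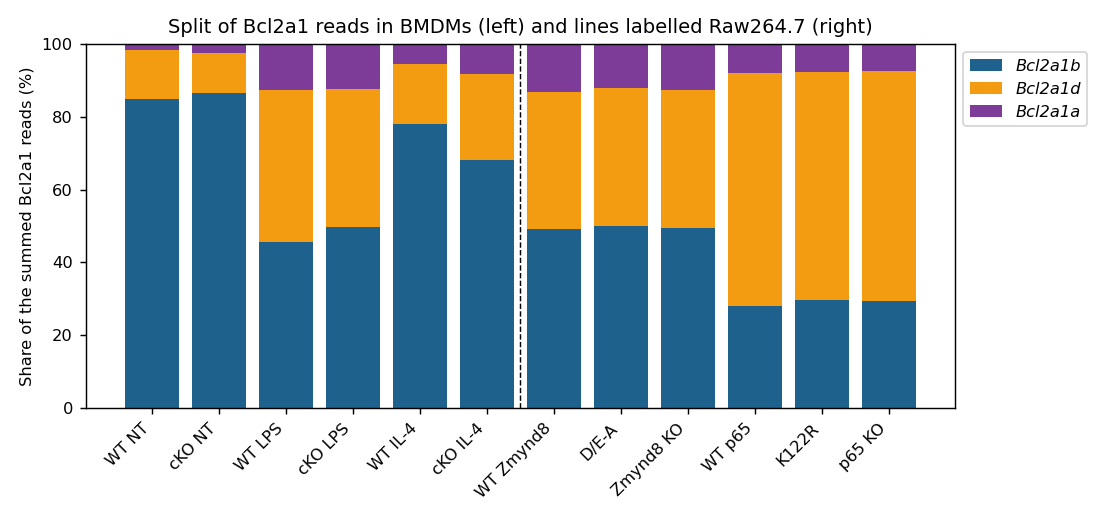
Percent of the summed reads of the 3 Bcl2a1 genes counted for each copy (stacked bars), in the 6 BMDM libraries (left of the dashed line) and the 6 libraries labelled Raw264.7 (right). Bcl2a1b takes 85.0% and 86.4% in the NT libraries and 45.7% and 49.8% in the LPS libraries of BMDMs, and 27.9% to 29.7% in the p65 lines.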

How the data were processed

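RNA-seq of 6 BMDM and 6 Raw264.7 libraries was used. For BMDMs the authors used TopHat with the mm10 transcriptome, and the deposited tables give estimated counts and TPM per gene. The estimated counts, whole for 75.2% to 76.6% of values above 0, were rounded, and entries without a gene (431 in NT and LPS, 2 in IL-4) held no counts and were left out. The tables deposited for Raw264.7 hold a signal, found to be whole reads divided by a size factor (within 0.1 read for at least 99.9954% of values). Where counts had been assumed, the log2 of the value plus 1 was therefore used. The deposited fold changes and p-values of the authors' own comparisons, and 2 unlabelled columns of values, were not used. The submitters' processing notes also name CASAVA 1.4 and Bowtie 0.12.2, with no role.

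Treatments, and genotype over treatments, were tested with edgeR 4.0.16 (TMM, quasi-likelihood, mean count of at least 10, Benjamini-Hochberg adjustment over all genes tested, 2 residual degrees of freedom). Each SE was derived as the absolute log2 fold change divided by the square root of the F statistic of this test. Within a treatment, libraries were compared by a two-sided exact binomial test on reads, and Raw264.7 lines by fold alone, above a mean value of 1. Limits are 95% Clopper-Pearson limits. In simulated data for LPS against NT with 200 changed genes, 100% of 4-fold and 26% of 2-fold changes were called. The same thresholds of fold (1.2) and adjusted p (0.05) were used throughout. Besides the 10 genes, the text names at most 4 genes per list and comparison, those with the largest change among the called, plus the cell type markers and Zmynd8 and Rela. Arg1 (cKO against WT with IL-4) and Bik and Bmf (K122R) were named outside this rule, after their values were seen. These 10 genes and the lists were chosen with earlier results of these data known. DESeq2 1.42.0, library totals, median ratios, other count minimums, pseudocounts and folds, and leaving out each library were alternatives.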

Additional observations from a re-analysis of the deposited data

Results flagged for a closer look

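Birc2, Xiap and Cflar were called lower in the cKO library in NT and higher in it after a treatment. Other genes of the 10 also changed sign between treatments but were not called on both sides. Over all genes tested, 26.1% were called lower in NT, 17.3% higher after LPS and 14% higher after IL-4. How many of all genes were called on both sides was not counted. Between LPS and NT, the log2 fold change of cKO against WT differed by 0.98 for Birc2, 1.12 for Xiap and 1.43 for Cflar. Between IL-4 and NT it differed by 1.58 for Cflar. Each value rests on 1 library per genotype and treatment, so these differences were not tested.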

How the results depend on the processing

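Of the counts of the 10 genes called, 85 alternatives stayed within 1.5 times the reported count and 7 did not. These 7 used a fold change of at least 2, which left 0 genes for cKO against WT in NT and after LPS, 1 after IL-4, 1 for D/E-A, 0 for Zmynd8 KO, 1 for K122R and 0 for p65 KO. Leaving out 1 BMDM library at a time, with the lone library of that arm assumed to vary like the others, gave 8 to 9 genes called for LPS, 5 to 8 for IL-4 (5 without the cKO IL-4 library and 8 without the WT NT library) and 0 for cKO against WT. No paired analysis was possible because the labels number no replicates, and the edgeR fits already match libraries by genotype or treatment. Some single values turned sign, and the cause was not tested. For LPS against NT, Xiap was at -0.23 with library totals and Bcl2l1 between -0.36 and 0.21 without single libraries (0.21 without the cKO LPS library). For IL-4 against NT, single libraries left out moved Mcl1 between -0.044 and 0.57 and Xiap between -0.22 and 0.61 (both below 0 without the cKO NT library). For cKO against WT over treatments, estimates that were small to begin with turned: without the IL-4 libraries to -0.15 (Bcl2a1d), -0.046 (Bcl2l1) and -0.26 (Cflar), without the LPS libraries to -0.17 (Cflar), without the NT libraries to 0.23 (Birc2) and 0.22 (Xiap), and without single libraries over ranges of -0.15 to 0.48 (Bcl2a1d), -0.046 to 0.29 (Bcl2l1), -0.26 to 0.51 (Cflar), -0.24 to 0.23 (Birc2) and -0.31 to 0.22 (Xiap). Within treatments, Bcl2a1d after LPS was at -0.0104 under TMM and -0.0267 under the median ratio, and Xiap after IL-4 at -0.0031 and -0.0117. Summing the Bcl2a1 copies, an alternative chosen after seeing the data, left 4 genes called in NT.

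Over all genes, library totals gave 1922 higher and 6240 lower calls after LPS (3283 and 3354 with TMM) and 1764 and 986 after IL-4 (1390 and 1328). Leaving out 1 library gave 1541 to 4422 calls for IL-4 against 2718, and 5 to 24 for cKO against WT, against 0. RPM, in which the added 1 and the minimum mean weigh more than in reads, gave 6575 genes past the fold for K122R (1928 higher and 4647 lower) against 12453, 6899 for Zmynd8 KO against 14978 and 3970 for p65 KO against 10325. Library totals kept in the unit of reads, an alternative chosen after seeing the data, gave 12994 (4376 higher and 8618 lower), 14735 and 10330. Adding an exact binomial test left 5353, 7035 and 2706, and a mean value of at least 5 left 6514 for p65 KO. With 2 residual degrees of freedom, 26% of 2-fold and 100% of 4-fold changes were called in the simulated data for LPS against NT. Folds between these were not simulated. The simulation held 200 changed genes, whereas 6637 genes were called after LPS, so its shares need not hold for these data.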
